A study of Mus musculus with 2 samples.

Results

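Granzymes are the serine proteases, and perforin the pore-forming protein, that cytotoxic lymphocytes store in granules and release onto a target cell. The 8 granzyme genes Gzma, Gzmb, Gzmc, Gzmd, Gzme, Gzmf, Gzmk and Gzmm, the perforin gene Prf1 and the granule membrane gene Nkg7 were followed here. These 10 genes were taken by name from the 32285 genes counted in each of 2 single-cell libraries, and all 10 were present in both. Perforin opens the membrane, granzymes B and A cleave substrates inside the target, and natural killer (NK) cells hold ready-made granules while CD8 T cells fill theirs after activation. Granzyme K marks CD8 T cells of a memory type, and Gzmc to Gzmf are rodent genes that lie beside Gzmb on chromosome 14.

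The libraries held sorted live CD45+ cells, the leukocytes, from tumors of a lenvatinib-resistant Trp53KO/MYCOE mouse model of hepatocellular carcinoma. Male wild-type C57BL/6 J mice aged 6 to 8 weeks received plasmids encoding MYC and a guide against Trp53 with sleeping beauty transposase by hydrodynamic tail vein injection, a route that transfects hepatocytes. In both groups, lenvatinib, a multikinase inhibitor, was given at 30 mg/kg from 12 days after injection for 25 days. Mice then stayed on lenvatinib alone (the lenvatinib library) or also received palbociclib, an inhibitor of the cell cycle kinases CDK4 and CDK6, at 100 mg/kg (the combo library). There was 1 library per condition, and the number of mice behind each was not given in the sources used here. No test between the treatments was therefore possible, treatment and library cannot be told apart, and every interval below is a 95% interval that covers counting error only.

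After removal of cells with more than 6000 genes or more than 25% mitochondrial counts, 14201 lenvatinib and 11613 combo cells were kept, with medians of 5541 and 5754 unique molecular identifiers (UMIs, counted molecules). Ptprc, which encodes CD45, was detected in 95.4% of the kept cells in both libraries, and 49 barcodes occurred in both. Cells were gated on a few genes. CD8 T cells (Cd3e and Cd8b1) numbered 3450 under lenvatinib and 2637 under combo, Trdc T cells (Cd3e and Trdc without Cd8b1) 626 and 345, CD4 T cells 577 and 527, and NK cells (Ncr1 without Cd3e) 2851 and 1264. Other Cd3e cells, which had Cd3e but were in none of these T cell classes, numbered 2156 and 1577. A further 3181 and 2529 cells matched no single gate, and Scrublet called 4.46% and 2.76% of all cells doublets. Levels are counts per 1000000 UMIs of the class (CPM). Markers outside the gates were checked, and Cd8a was detected in 83.9% and 84.5% of the CD8 T cells, and Klrb1c in 82.3% and 84.5% of the NK cells. Of the other NK markers, Klrk1, Tyrobp and Fcer1g were detected in 87.2% to 99.1%. Eomes was detected in 66.7% and 49.8% of the NK cells, Itga2 in 30.3% and 21.3%, and Itga1 in 24.9% and 20.4%. Among Trdc T cells, Tcrg-C1 was detected in 43.3% and 49.0%, so this class is named by its gate.

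Granzyme UMIs were also found in cells that are not known to make granzymes, to a different extent in each library. After each cell was thinned to 2000 UMIs, Gzma was found in 17.3% of B cells under lenvatinib and in 4.72% under combo. Nkg7 was found in 60 of 376 and 28 of 466 B cells, whereas Gzmb was found in 3.99% and 4.72% and Prf1 in 1.33% and 1.29%. Gzmk was found in 0 of 376 B cells, with an upper bound of 0.976%, and in 0.429% under combo. For the neutrophil gene S100a8 the traces ran the other way, with 57.9% of CD8 T cells positive under lenvatinib and 96.9% under combo. A single UMI of Gzma or Nkg7 is thus weak evidence that a cell expressed the gene, and shares with at least 3 UMIs are given where it matters. That stricter limit, chosen after the data were seen, left Gzma in 0.532% and 0.429% of B cells.

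Gzma (chr13:113093825-113100981) and Gzmk (chr13:113171608-113225908) lie on the minus strand, and Gzmm (chr10:79689020-79695261), Prf1 (chr10:61297833-61304680) and Nkg7 (chr7:43437073-43438249) on the plus strand. The other 5 granzyme genes lie within 56117626 to 56262260 of chromosome 14 in the GRCm38 build, also on the minus strand. The transcripts of Gzmd and Gzme were 94.8% identical over 916 aligned bases, and Gzmf was 87.6% identical to each, whereas Gzmc was 76.3% to 77.1% identical to these and Gzmb 70.1% to 77.6% identical to the other four. Of 351 windows of 50 bases at the 3′ end of the Gzmd transcript, where this assay reads, 21 occurred unchanged in Gzme and 22 in Gzmf, so counts of these paralogs may be split or lost. No such window of Gzmb or Gzmc occurred in another of these genes. Gzmf overlaps the antisense gene Gm4022, and Gzmk overlaps Esm1 on the opposite strand. The 250 bases before the RefSeq start site (GRCm38.p6) are shown for the cluster. Its members Gzmc to Gzmf had their highest levels in NK cells under combo, and Gzmb was also high in CD8 T cells. Capitals mark AACCACA, a Runx factor motif, and TGACGT, the core of a CREB binding site, on either strand, and the 8 capitals TGACGTCA are this motif read on both strands.
Gzmc (chr14:56234658-56234907): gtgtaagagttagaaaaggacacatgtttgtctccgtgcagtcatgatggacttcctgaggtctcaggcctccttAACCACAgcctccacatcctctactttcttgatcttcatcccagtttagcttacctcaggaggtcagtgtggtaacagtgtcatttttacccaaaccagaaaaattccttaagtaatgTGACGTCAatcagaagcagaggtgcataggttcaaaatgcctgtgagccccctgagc
Gzmd (chr14:56132594-56132843): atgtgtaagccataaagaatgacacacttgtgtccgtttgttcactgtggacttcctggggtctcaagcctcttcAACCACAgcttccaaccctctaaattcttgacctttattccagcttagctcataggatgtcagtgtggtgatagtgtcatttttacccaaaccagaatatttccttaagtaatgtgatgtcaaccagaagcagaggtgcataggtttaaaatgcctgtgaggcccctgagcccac
Gzme (chr14:56120626-56120875): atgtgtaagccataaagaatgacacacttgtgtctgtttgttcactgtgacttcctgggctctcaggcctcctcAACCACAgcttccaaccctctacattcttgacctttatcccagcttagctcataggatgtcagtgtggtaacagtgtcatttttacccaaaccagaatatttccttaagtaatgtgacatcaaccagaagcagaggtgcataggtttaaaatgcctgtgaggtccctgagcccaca
Gzmf (chr14:56211408-56211657): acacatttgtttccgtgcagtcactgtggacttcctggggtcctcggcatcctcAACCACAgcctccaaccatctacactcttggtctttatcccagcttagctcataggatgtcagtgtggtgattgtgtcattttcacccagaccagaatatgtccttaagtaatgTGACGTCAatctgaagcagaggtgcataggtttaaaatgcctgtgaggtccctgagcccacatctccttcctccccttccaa
Gzmb (chr14:56262335-56262584): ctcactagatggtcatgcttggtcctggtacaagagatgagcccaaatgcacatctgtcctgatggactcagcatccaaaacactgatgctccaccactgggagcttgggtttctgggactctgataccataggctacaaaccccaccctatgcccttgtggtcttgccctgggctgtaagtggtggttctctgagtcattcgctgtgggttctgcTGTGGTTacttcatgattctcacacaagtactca
The windows of Gzmc, Gzmd, Gzme and Gzmf aligned with 84.4% to 95.6% identity. Each of the 5 held AACCACA once, as did that of Gzma, whereas those of Gzmk, Prf1 and Nkg7 did not. The motif stood in 4.41% of 32536 distinct windows of all genes. TGACGT stood in the windows of Gzmc and Gzmf, where it is read on both strands of 1 palindrome, in that of Prf1, and in 6.50% of all windows. The T-box letters GGTGTGA were found only in the windows of Gzmk and Nkg7 among 9 members with 1 window each, and in 3.33% of all windows, and TATAAA in none of these 9 and in 12.3% of all windows.

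**Figure D1:**
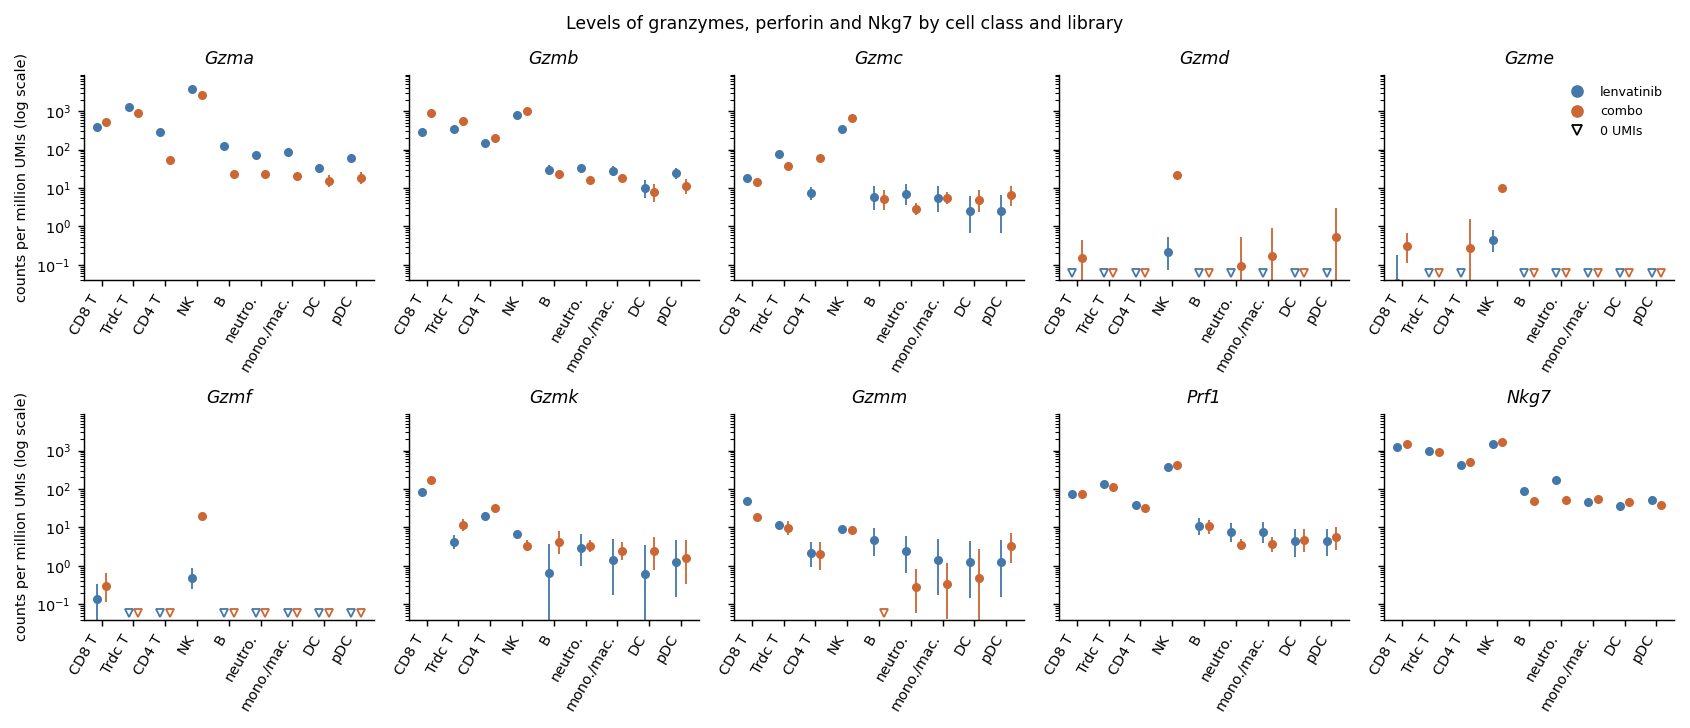
Level of each gene in CPM (log axis) in 9 gated classes (CD8 T, Trdc T, CD4 T, NK and B cells, neutrophils, monocytes and macrophages, dendritic and plasmacytoid dendritic cells, without the few basophil and mast cells), with blue points for lenvatinib, orange points for combo, bars for 95% counting intervals and open triangles for 0 UMIs. Among these, NK cells held the highest point of Gzma, Gzmb, Gzmc and Prf1 in both libraries, and CD8 T cells that of Gzmk and Gzmm. Other Cd3e cells are also left out.

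Gzmb, the granzyme that activates caspases in the target, had the largest fold difference in CD8 T cells among the 7 members with at least 50 UMIs there. Its level was 280.4 CPM (274 to 286) under lenvatinib and 885 CPM (872 to 898) under combo, a ratio of 3.16 (3.07 to 3.24). Thinned to 2000 UMIs, 28.4% of CD8 T cells under lenvatinib (957 of 3364) and 49.6% under combo (1292 of 2603) held Gzmb, and 8.35% and 26.7% held at least 3 of its UMIs. Both the level and the share were thus higher under combo, and B cells, with 3.99% and 4.72%, did not share the difference. Among CD8 T cells with Gzmb, the median was 2 UMIs under lenvatinib and 5 under combo without thinning, although the median depth of CD8 T cells was 7432 UMIs under lenvatinib and 5971 under combo.

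In the other lymphocytes the same gene differed less between the libraries. NK cells had 779 and 1014 CPM of Gzmb, a ratio of 1.30 (1.27 to 1.33), and 49.8% and 56.6% of thinned cells were positive. Trdc T cells had 352 and 569.8 CPM, a ratio of 1.62 (1.51 to 1.73), with 24.1% and 27.5% of thinned cells positive and overlapping intervals. CD4 T cells had 146 and 197 CPM with 14.1% and 12.3% positive, and the intervals of these shares overlap. Other Cd3e cells had 318 and 448 CPM, a ratio of 1.41 (1.35 to 1.46). Basophil and mast cells, only 27 and 16 in number, had 1179.6 and 344 CPM of Gzmb from 179 and 115 UMIs, of which 2 and 3 cells held 87.2% and 77.4%.

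Gzmk, which has a tryptase-like activity, was highest in CD8 T cells in both libraries. CD8 T cells had 83.1 CPM (79.9 to 86.4) under lenvatinib and 167 CPM (162 to 173) under combo, a ratio of 2.02 (1.91 to 2.12), and 16.6% and 29.5% of thinned cells were positive. NK cells had 6.84 and 3.36 CPM from 154 and 38 UMIs, with 1.08% and 0.640% of thinned cells positive, close to the 0.542% and 0.937% of neutrophils. In CD4 T cells Gzmk was detected in 2.85% and 7.69%, and in Trdc T cells in 0.653% and 2.05%. The shares were thus higher under combo in CD8 T and CD4 T cells, while in Trdc T cells, with 22 and 32 UMIs, their intervals overlap.

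Gzmm, a granzyme that cuts after methionine or leucine, differed the other way. It was 49.8 CPM (47.3 to 52.4) in CD8 T cells under lenvatinib and 18.4 CPM (16.5 to 20.4) under combo, a ratio of 0.369 (0.328 to 0.414), and 7.22% and 2.50% of thinned cells were positive. NK cells had 9.01 and 8.75 CPM, a ratio of 0.971 (0.756 to 1.24), which did not differ beyond counting error. Trdc T cells had 11.4 and 9.86 CPM from 59 and 27 UMIs, again with an interval that held 1 (0.525 to 1.38). With Trdc cells taken whatever their Cd8b1, the ratio was 0.425.

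Gzma, a tryptase and the abundant granzyme of NK cells, was lower in NK cells and higher in CD8 T cells under combo. NK cells had 3767 CPM (3742 to 3792) under lenvatinib and 2626 CPM (2596 to 2656) under combo, a ratio of 0.697 (0.688 to 0.706), and 75.3% and 61.1% of thinned cells were positive. Cells with at least 3 UMIs made up 59.7% and 51.0% of NK cells, so a smaller share of NK cells under combo carried it. The ratio came to 0.919 when each cell's own CPM was averaged, which gives every cell the same weight. Trdc T cells had 1255 and 904 CPM, a ratio of 0.720 (0.687 to 0.755), with 52.9% of the combo UMIs in 3 of 345 cells. The Trdc T cells with an Ncr1 UMI, given below, went the other way. CD4 T cells had 293 and 54.8 CPM, with 18.4% and 5.19% of thinned cells positive, against 17.3% and 4.72% of B cells, so their share was near that of B cells in each library. Other Cd3e cells had 532 and 264 CPM of Gzma, a ratio of 0.497 (0.477 to 0.517).

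The Gzma of CD8 T cells came from few cells. The level was 385 CPM (378 to 393) under lenvatinib and 516 CPM (506 to 526) under combo, a ratio of 1.34 (1.30 to 1.37), while the share positive after thinning was 21.4% and 20.6%. The lenvatinib share was near that of B cells, and at the limit of 3 UMIs the shares were 6.75% (5.92% to 7.65%) and 11.6% (10.4% to 12.9%). The shares at 1 UMI had overlapping intervals, and those at 3 UMIs did not. Cells with at least 10 Gzma UMIs, a limit set after the data were seen, numbered 218 of 3450 under lenvatinib and 263 of 2637 under combo and held 79.4% and 86.9% of its UMIs. Under lenvatinib 48.6% of these cells also had an Ncr1 UMI, the NK receptor gene, against 7.64% of the other CD8 T cells, and under combo 13.3% against 2.65%. Scrublet called 36.7% of them doublets under lenvatinib and 10.6% under combo, against 4.21% and 3.41% of the other CD8 T cells.

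CD8 T cells with an Ncr1 UMI, 10.2% of the class under lenvatinib and 3.72% under combo, held 50.5% and 15.4% of its Gzma UMIs. In the CD8 T cells without Ncr1, Gzma was 225 CPM (219 to 231) under lenvatinib and 465 CPM (455 to 474) under combo, a ratio of 2.06. Removal of called doublets gave a ratio of 1.63. The difference in Gzma between the libraries was therefore larger without these cells than with them. For Gzmb the Ncr1-free cells had 254 and 871 CPM, a ratio of 3.43, and for Prf1 61.0 and 69.5 CPM, a ratio of 1.14. The same split mattered more in Trdc T cells, where 192 of 626 and 67 of 345 cells had an Ncr1 UMI and held 91.1% and 91.9% of the Gzma UMIs and 84.1% and 74.3% of those of Prf1. In the Trdc T cells with Ncr1, Gzma was 2779 CPM (2709 to 2851) under lenvatinib and 3133 CPM (3005 to 3264) under combo, the other way from the whole class. Its combo value rests on few cells, since 3 cells held 52.9% of the class's combo UMIs. In the Trdc T cells without Ncr1, Gzma was 189 and 99.3 CPM, beside 128 and 23.0 CPM in B cells, and Gzmb 144 and 290.1 CPM.

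**Figure D2:**
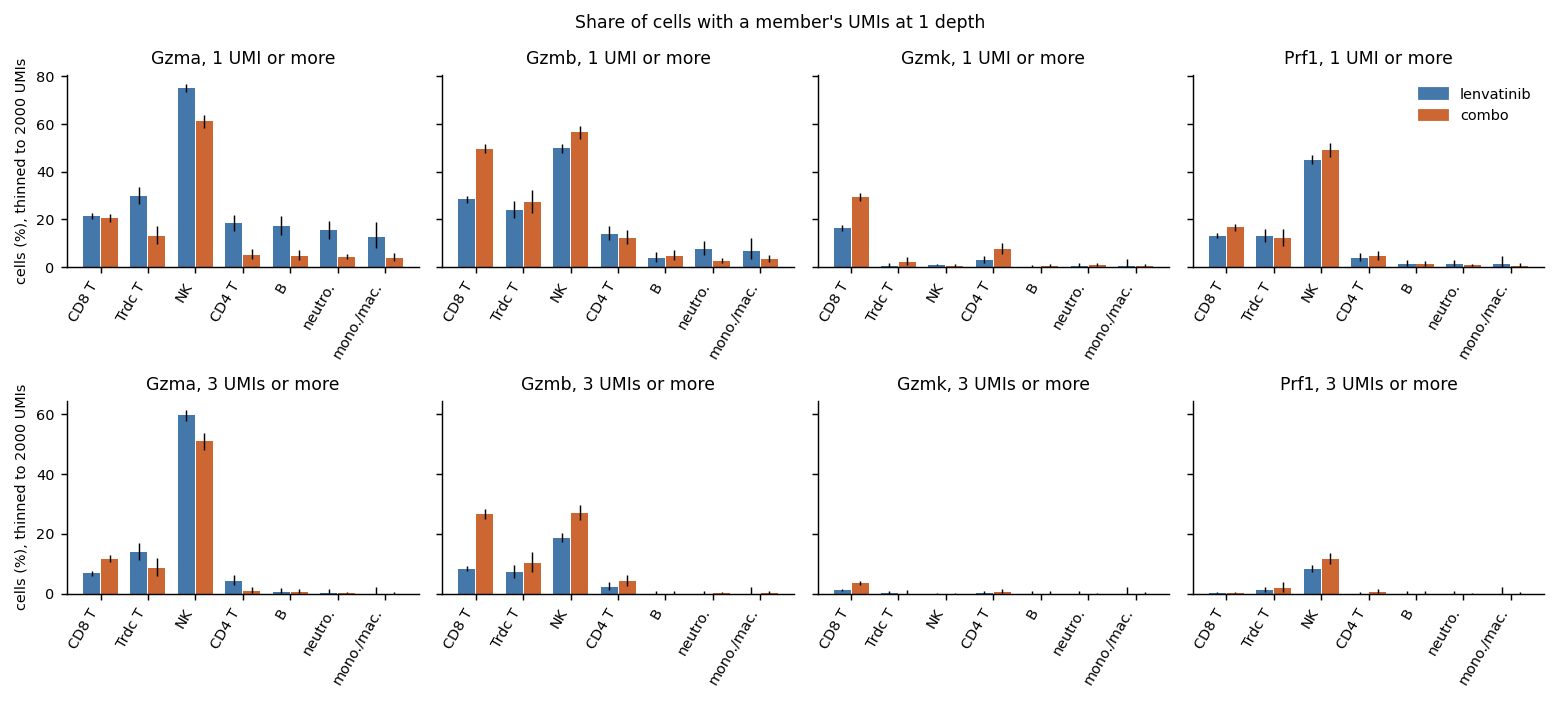
Percent of cells, each thinned to 2000 UMIs, with at least 1 UMI (top) or at least 3 UMIs (bottom) of Gzma, Gzmb, Gzmk and Prf1 in 7 classes, with blue bars for lenvatinib, orange bars for combo and lines for exact 95% intervals. Gzma at 1 UMI was found in 17.3% of B cells under lenvatinib, and at 3 UMIs in 0.532%, while the Gzmb bars of CD8 T cells stand at 28.4% and 49.6%, and at 8.35% and 26.7%.

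Prf1, perforin itself, did not follow Gzmb in CD8 T cells. Its level was 75.4 CPM (72.4 to 78.6) under lenvatinib and 75.5 CPM (71.7 to 79.4) under combo, with an interval of the ratio from 0.936 to 1.07. The share of thinned cells was 13.2% (12.1% to 14.4%) and 16.7% (15.3% to 18.2%), so it was somewhat higher under combo, while the level of the whole class was the same. CD8 T cells with an Ncr1 UMI held 31.6% and 13.4% of the Prf1 UMIs. Without them the level was 61.0 CPM (58.0 to 64.1) under lenvatinib and 69.5 CPM (65.8 to 73.4) under combo. NK cells had 369 and 413 CPM, a ratio of 1.12 (1.08 to 1.16), and Trdc T cells 134 and 111 CPM, a ratio of 0.824 (0.717 to 0.944). Within Trdc T cells it was 275 (253 to 298) and 309.7 CPM (271 to 353) with an Ncr1 UMI and 36.2 and 38.7 CPM without, with overlapping intervals in both parts, and cells with Ncr1 were 30.7% and 19.4% of the class. Nkg7, needed for granules to release their content, had 1222 and 1507 CPM in CD8 T cells and 1512 and 1652 CPM in NK cells, ratios of 1.23 and 1.09. It was detected in 84.1% and 86.8% of thinned CD8 T cells and in 88.8% and 88.5% of thinned NK cells, so most cells of both classes carried it in both libraries.

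Gzmc was highest in NK cells and was carried by a small number of them. NK cells had 344 CPM (336 to 351) under lenvatinib and 668 CPM (653 to 683) under combo, a ratio of 1.94 (1.88 to 2.01), with 246 of 2678 and 150 of 1250 thinned cells positive. A single lenvatinib cell had 1509 of the 7738 UMIs there. Without the cell with most UMIs in each library the ratio was 2.23. Cells with at least 50 UMIs were 29 NK cells, or 1.02%, under lenvatinib and 42, or 3.32%, under combo. They held 68.4% and 80.2% of the UMIs, with a median of 14179 and 13094 UMIs in all against 6915 and 7074 in the other NK cells, and none was called a doublet. CD8 T cells had 18.4 and 14.6 CPM, a ratio of 0.797 (0.688 to 0.920), but 73.4% and 45.7% of these UMIs lay in cells with an Ncr1 UMI, and without them the ratio was 1.47. In CD4 T cells under combo 111 of 213 UMIs came from 1 cell. Other Cd3e cells had 44.0 and 105 CPM of Gzmc from 618 and 1324 UMIs, and 1 combo cell held 347 of them.

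Gzmd, Gzme and Gzmf were rare and were counted mostly in NK cells of the combo library. In NK cells Gzmd had 5 UMIs in 2 cells under lenvatinib and 241 in 16 cells under combo, Gzme 10 in 4 cells and 114 in 17 cells, and Gzmf 11 in 5 cells and 220 in 8 cells. Of the 220 Gzmf UMIs, 206 came from 1 cell, and of the 241 Gzmd UMIs, 103 came from 1 cell. The ratio of Gzmf was 39.8 with all cells, 4.66 without the top cell of each library and 1.39 when NK cells with Cd3d or Cd3g were left out, so it rested largely on 1 cell. With the neighbouring gene Gzmg, 10 NK cells under lenvatinib (0.351%) and 29 under combo (2.29%) held any of the 4 genes. Those cells also held 22.4% and 38.2% of all NK Gzmc UMIs, and 7 of the 10 and 23 of the 29 were Gzmc positive. Outside NK cells, none of the 3 genes exceeded 10 UMIs in any class of either library.

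**Figure D3:**
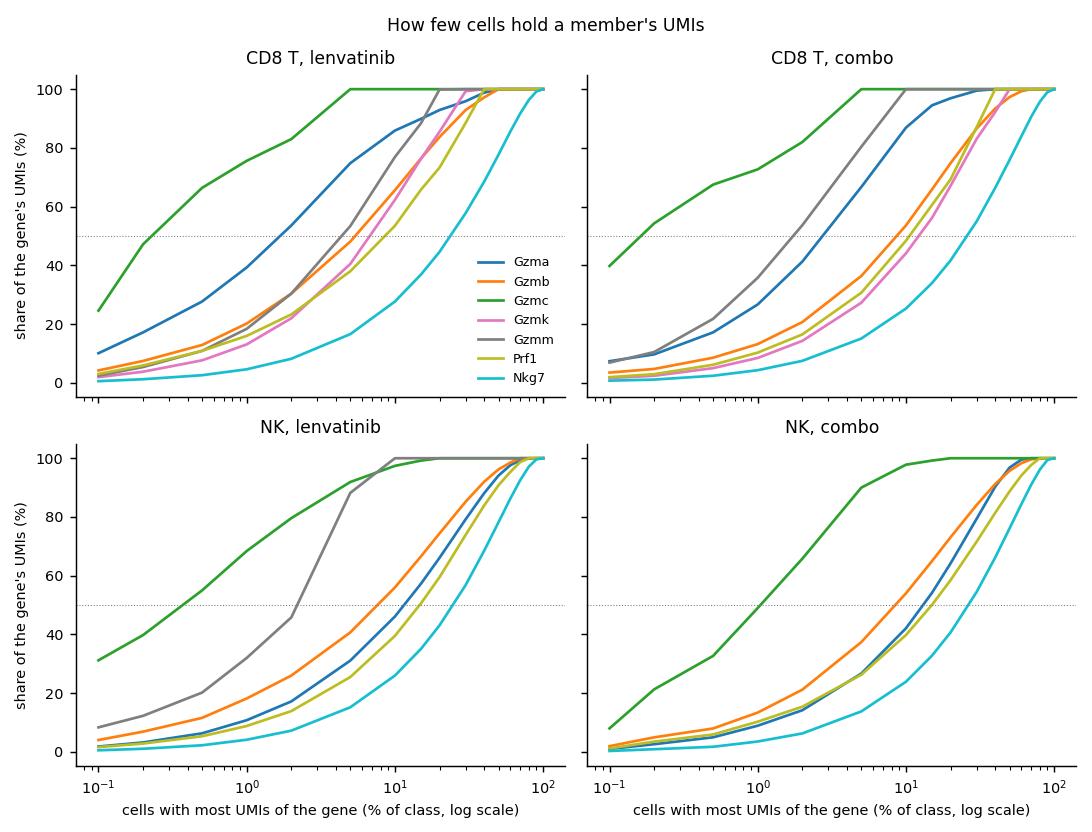
Cumulative share of a gene's UMIs (vertical axis, percent) in the cells with most of its UMIs (horizontal axis, percent of the class, log scale) for CD8 T cells (top) and NK cells (bottom) under lenvatinib (left) and combo (right), with 1 line per gene and a dotted line at 50 percent. In NK cells under lenvatinib the top 1% of cells held 68.4% of Gzmc UMIs and 10.8% of Gzma UMIs, and the Nkg7 line rises last in every panel.

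The members were then read against all genes with at least 50 UMIs over both libraries. In CD8 T cells 2 of 7 members tested (Gzmb, Gzmk) were at least 1.5-fold higher under combo, against 7.49% of 11840 genes, and 1 (Gzmm) was lower, against 12.5%. In NK cells 4 of 10 (Gzmc, Gzmd, Gzme, Gzmf) were higher, against 7.91% of 11195 genes, and 1 (Gzmk, on 154 and 38 UMIs) was lower, against 13.2%. Gzmd, Gzme and Gzmf reached 50 UMIs there only through the combo library, where they were higher, and Gzmk only through the lenvatinib library. The filter thus favored these calls, and nothing is read from the NK counts against all genes. When NK cells with Cd3d or Cd3g were left out, Gzmc at 1.46 and Gzmf at 1.39 no longer reached 1.5-fold, and Gzmf was 1.07 without cells of another lineage. In Trdc T cells 2 of 7 (Gzmb, Gzmk) were higher, against 4.71% of 8720 genes, and 1 (Gzmc) was lower, against 17.8%. Cells with an Ncr1 UMI held 91.0% of the lenvatinib Gzmc UMIs of Trdc T cells, and without those cells its ratio was 0.905. The median ratio of the members tested was 1.23, 1.21 and 0.862 in CD8 T, NK and Trdc T cells, beside 0.913, 0.911 and 0.881 over all genes tested. The NK value of 1.21 includes Gzmd, Gzme and Gzmf. Relative to the median over all genes, the ratio of Gzmb in CD8 T cells was 3.45 and that of Gzma in NK cells 0.765.

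**Figure D4:**
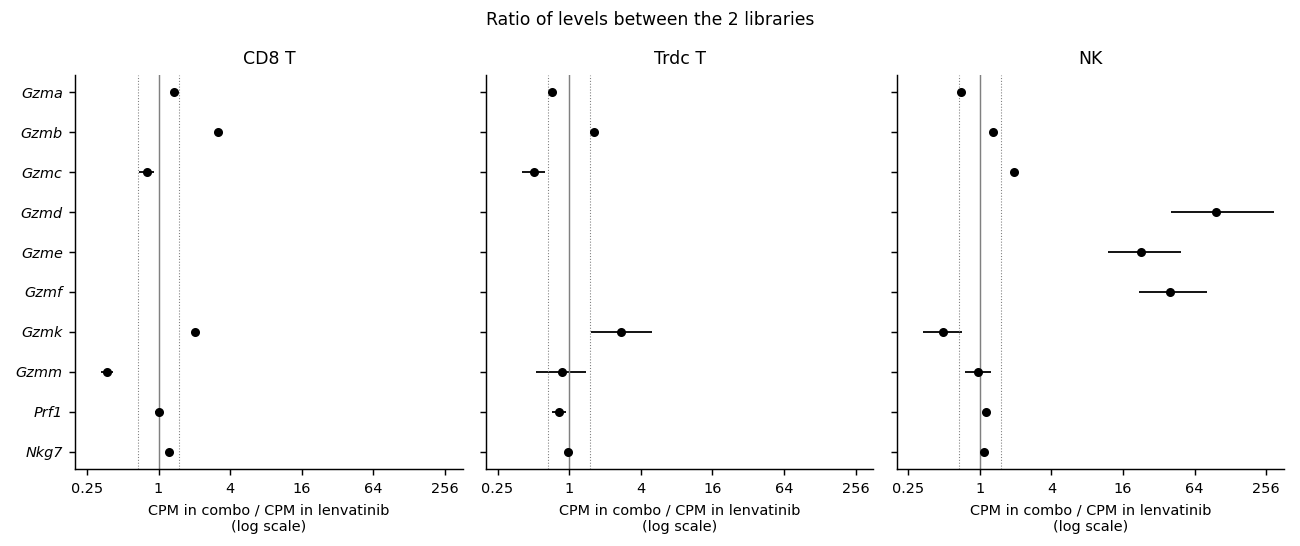
Ratio of the level in combo to that in lenvatinib (log axis) for each member with at least 50 UMIs over both libraries in CD8 T, Trdc T and NK cells, with bars for 95% counting intervals, a grey line at 1 and dotted lines at 1.5-fold up and down. Gzmb stands at 3.16 in CD8 T cells, Gzma at 0.697 in NK cells, and the far right points of Gzmd, Gzme and Gzmf rest on 16, 17 and 8 combo cells.

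CD8 T cells with Pdcd1, the gene of the inhibitory receptor PD-1 that activated and exhausted T cells carry, had more of most members than those without it. Pdcd1 was detected in 464 CD8 T cells under lenvatinib and 587 under combo, and its positive cells were not deeper than the negative cells, with medians of 6360.5 against 7598 UMIs and 5586 against 6093. Under lenvatinib Gzmb was 468 CPM in Pdcd1 positive and 251 CPM in negative cells, a ratio of 1.86 (1.77 to 1.96), and under combo 1197 and 794 CPM, a ratio of 1.51 (1.46 to 1.56). The combo level in Pdcd1 negative cells was above the lenvatinib level in Pdcd1 positive cells. Between the libraries, Gzmb was therefore higher under combo on both sides of the split.

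Gzmk was also higher in the cells with Pdcd1. Under lenvatinib it was 231 CPM in positive and 60.2 CPM in negative cells, a ratio of 3.83 (3.53 to 4.16), and under combo 276 and 136 CPM, a ratio of 2.03 (1.89 to 2.18). The negative cells differed more between the libraries (60.2 to 136 CPM) than the positive cells (231 to 276 CPM), and in thinned positive cells the shares of 39.6% and 41.2% had overlapping intervals. Gzmm went the other way, with 15.9 against 55.0 CPM under lenvatinib and 6.51 against 21.8 CPM under combo, ratios of 0.289 and 0.299. Prf1 differed less, with ratios of 1.42 and 1.23, and Nkg7 had ratios of 1.58 and 1.35. At 1.5-fold, 5 of 7 members were higher in positive cells under lenvatinib (Gzma, Gzmb, Gzmc, Gzmk and Nkg7), against 11.4% of genes, and 1 (Gzmm) was lower, against 7.39%. Under combo 3 of 7 were higher (Gzmb, Gzmc, Gzmk), against 6.20%, and 1 (Gzmm) lower, against 4.47%. Without Ncr1 positive cells the ratios of Gzmc were 1.05 and 0.758, so its place in both counts was lost. The Gzma ratio under lenvatinib was 1.58, and it fell short of 1.5-fold at 1.35 without the top cells, 1.35 as a mean over cells, 1.44 without mitochondrial, ribosomal protein and hemoglobin genes and 1.47 with the stricter cell filter. The combo ratio of Gzmb, 1.51, was at the limit and fell to 1.38 as a mean over cells and 1.42 without those genes.

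Mki67, a gene of proliferating cells, was detected in 782 of 3450 CD8 T cells under lenvatinib and 219 of 2637 under combo. Its positive cells were deeper, with medians of 10969.5 against 6784 UMIs under lenvatinib and 10649 against 5828 under combo. Gzmb was 310.1 CPM in Mki67 positive and 266 CPM in negative CD8 T cells under lenvatinib, and 749.8 and 907 CPM under combo. The higher Gzmb level under combo was thus present in cells with and without Mki67. Gzma was 546 and 306 CPM under lenvatinib and 478 and 522 CPM under combo, so the 2 libraries differed in opposite directions in positive and negative cells. Of CD8 T cells with at least 10 Gzma UMIs, 38.1% had Mki67 under lenvatinib, against 21.6% of the others, and 10.3% against 8.09% under combo. The part of these cells, some with an Ncr1 UMI or called doublets, in that difference was not tested.

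NK cells were split by Klra8, which encodes the activating receptor Ly49H of mature conventional NK cells. Klra8 was detected in 1212 of 2851 NK cells under lenvatinib and 505 of 1264 under combo, and in 4.98% and 0.207% of B cells. The part of such traces in the split was not tested. In Klra8 positive cells Gzma was 4362 CPM (4322 to 4402) under lenvatinib and 4202 CPM (4142 to 4264) under combo. In Klra8 negative cells it was 3253 CPM (3221 to 3285) and 1644 CPM (1614 to 1674), and 51.2% and 34.8% of thinned cells held at least 3 UMIs. The ratio of combo to lenvatinib was thus 0.963 in positive and 0.505 in negative cells. The ratio of positive to negative cells was 1.34 (1.32 to 1.36) under lenvatinib and 2.56 (2.50 to 2.62) under combo.

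By level, Prf1 followed Gzma in this split and Gzmb did not. Prf1 was 433 and 314 CPM in positive and negative cells under lenvatinib and 552 and 325 CPM under combo, ratios of 1.38 and 1.70. Gzmb was 766 and 790.4 CPM under lenvatinib and 950.5 and 1053 CPM under combo, ratios of 0.969 and 0.903. By share of thinned cells, Gzmb was found in 50.1% and 49.6% of positive and negative cells under lenvatinib. Under combo the shares were 62.4% (57.9% to 66.6%) and 52.7% (49.0% to 56.3%), so there it was found more often in positive cells. Gzmc lay on the Klra8 negative side, with 291 and 389 CPM under lenvatinib and 359 and 860.2 CPM under combo, and 83 of 1185 and 163 of 1493 thinned positive and negative cells held it under lenvatinib against 5.18% and 16.6% under combo. Under lenvatinib the Gzmc ratio of 0.747 became 0.432 without the top cell of each class. No member of 7 tested reached 1.5-fold under lenvatinib in either direction, against 1.03% of genes higher and 5.21% lower. Under combo 5 of 9 were higher in positive cells (Gzma, Gzmd, Gzmf, Gzmm, Prf1), against 2.81%, and 2 lower (Gzmc, Gzme), against 9.22%. Of these, Gzmd and Gzmf turned to the negative side, with ratios of 0.278 and 0.390, when NK cells with Cd3d or Cd3g were left out. Gzme and Gzmf reached 50 UMIs only through the side where they were higher. Of the positive-cell UMIs, 206 of 215 of Gzmf and 103 of 118 of Gzmd lay in 1 cell each. Gzmd, Gzme and Gzmf were not tested under lenvatinib, nor Gzmk under combo, so the counts of the 2 libraries cover different members and are not compared.

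For most pairs described here, a member was found more often in cells with the other than in cells without it. Shares here are of cells thinned to 2000 UMIs. In CD8 T cells with Gzmb, 30.9% under lenvatinib and 40.9% under combo also held Gzmk, against 10.8% and 18.2% of those without Gzmb. Prf1 was found in 19.1% and 22.7% of the Gzmb positive cells and in 10.9% and 10.8% of the negative cells. Cells with both Gzmb and Prf1 made up 5.44% (4.70% to 6.26%) of CD8 T cells under lenvatinib and 11.3% (10.1% to 12.5%) under combo, and cells with both Gzmb and Gzmk 8.80% and 20.3%. Any granzyme was found in 51.2% and 63.4%, and Gzma alone was found in 17.3% of B cells under lenvatinib.

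Gzmm and Gzmk were seldom found in the same CD8 T cell under lenvatinib. There Gzmk was found in 4.94% (2.58% to 8.47%) of the 243 Gzmm positive cells and in 17.5% of the rest, and Gzmb in 21.0% and 29.0%. Under combo, with 65 Gzmm positive cells, Gzmb was found in 38.5% (26.7% to 51.4%) and 49.9% (48.0% to 51.9%), and these intervals overlap. Those of Gzmk overlap too, at 11.1% to 31.8% with Gzmm and 28.0% to 31.6% without it.

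In NK cells the 3 main members were often together, and cells with Gzmc held Gzmb more often and Gzma less often than those without it. Gzma, Gzmb and Prf1 were all detected in 23.9% of NK cells under lenvatinib and 27.8% under combo, and Gzmb with Prf1 in 26.2% (24.5% to 27.9%) and 33.4% (30.8% to 36.1%). In Klra8 positive cells the 3 genes were together in 28.0% and 42.0%, and in Klra8 negative cells in 20.6% and 18.2%. NK cells with Gzmc held Gzma less often than those without it, at 60.6% against 76.8% under lenvatinib and 30.7% against 65.3% under combo. They held Gzmb more often, at 68.7% against 47.9% and 84.0% against 52.8%. In Klra8 positive cells under lenvatinib the Gzma shares with and without Gzmc had overlapping intervals, 69.2% to 87.6% and 83.5% to 87.7%. None of the 10 genes was detected in 3.62% of NK cells under lenvatinib and 6.48% under combo.

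**Figure D5:**
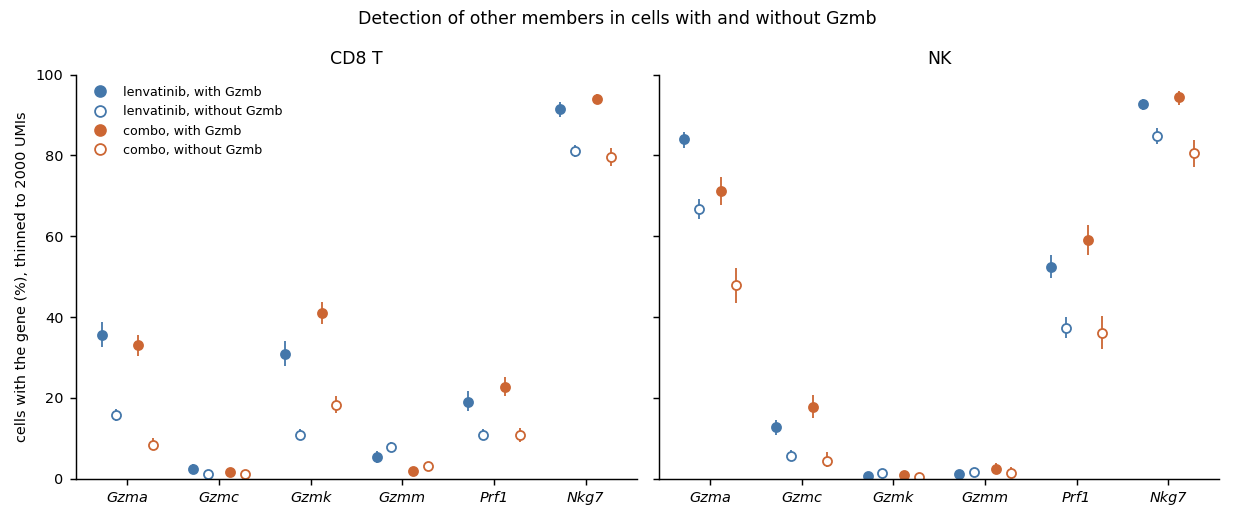
Percent of cells with each of 6 other members (vertical axis, cells thinned to 2000 UMIs) among cells with Gzmb (filled points) and without it (open points) in CD8 T and NK cells, with blue for lenvatinib, orange for combo and lines for exact 95% intervals. In CD8 T cells Gzmk stands at 30.9% with and 10.8% without Gzmb under lenvatinib and at 40.9% and 18.2% under combo, and the Gzmm intervals with and without Gzmb overlap in both libraries.

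The other genes of the granule pathway were counted from 6 lists, of which 44 genes were in the files. In CD8 T cells 4 of 40 genes tested were at least 1.5-fold higher under combo and 4 lower, against 7.49% and 12.5% of all genes, with a median ratio of 1.06 beside 0.913 for all genes, and in NK cells 6 of 41 were higher and 4 lower, against 7.91% and 13.2%, with a median of 1.04. In Trdc T cells 3 of 35 were higher and 3 lower, against 4.71% and 17.8%, with a median of 1.06. No gene of granule release passed 1.5-fold in CD8 T or NK cells, and the median of that list was 0.967 and 1.04. Its extremes in CD8 T cells were Stx11, a syntaxin of granule fusion, at 1.26, Vamp8 at 1.12, Lyst, which controls granule size, at 0.767, and the granule priming factor Unc13d at 0.713. In NK cells Lyst was at 1.35, Vamp8 and Vamp7 at 1.12, Ap3d1 at 0.752 and Unc13d at 0.723.

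Genes of granzyme processing and storage had median ratios of 1.23 in CD8 T and 1.29 in NK cells. In CD8 T cells 1 of 10 was at least 1.5-fold higher, against 7.49% of all genes, and in NK cells 3 of 10, against 7.91%. In both classes 0 were lower, against 12.5% and 13.2%. Ctsc, the protease that activates granzymes, was 79.1 and 109 CPM in CD8 T cells and 87.2 and 118 CPM in NK cells. Its relative Ctsh had ratios of 1.76 and 2.08, and Srgn, the proteoglycan that packs granzymes, 1.38 and 1.22. The granule tetraspanin Cd63 was 13.2 and 48.8 CPM in NK cells, a ratio of 3.70, and Lamp1 had a ratio of 1.54 there. Igf2r, a mannose 6-phosphate receptor that sorts granzymes, had the lowest ratios of the list, 0.712 and 0.705, followed by Calr at 0.943 and 0.960. Myeloid cells also express many genes of this list, and their traces were higher under combo in both classes, with S100a8 at 574 and 5721 CPM in CD8 T cells and at 774 and 11969 CPM in NK cells. Their part in the ratios and medians of this list was not tested.

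Among inhibitors, Serpinb9, which blocks granzyme B in the cell that makes it, was 97.4 and 119.8 CPM in CD8 T cells and 429 and 456 CPM in NK cells, ratios of 1.23 and 1.06. Serpinb6a had ratios of 1.32 and 1.10, and Serpinb6b 1.11 and 1.14. Serpinb9b was 3.09 and 0.557 CPM in CD8 T cells, a ratio of 0.180 (0.0870 to 0.338) on 93 and 11 UMIs, and 40.1 and 35.5 CPM in NK cells, a ratio of 0.886. CD8 T cells with an Ncr1 UMI were 10.2% and 3.72% of the class, and their part in the CD8 T ratio was not tested. Other effector genes passed 1.5-fold in neither class. In CD8 T cells the death ligand gene Fasl had a ratio of 1.40, Ifng 1.34, Tnf 1.07 and Tnfsf10 0.898, and in NK cells Lta had 1.34, Tnf 1.11, Fasl 0.854 and Tnfsf10 0.741.

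Of 8 transcription factors, 1 was at least 1.5-fold higher and 1 lower in CD8 T cells, against 7.49% and 12.5% of all genes. In NK cells 1 was higher and 2 were lower, against 7.91% and 13.2%. Tbx21 (T-bet) was 58.9 and 36.5 CPM in CD8 T cells and 93.4 and 53.7 CPM in NK cells, ratios of 0.620 and 0.575. Eomes was 145 and 97.4 CPM in CD8 T cells and 264 and 134 CPM in NK cells, ratios of 0.670 and 0.505, of which the first did not pass 1.5-fold. The part of CD8 T cells with an Ncr1 UMI in the CD8 T ratios of Tbx21 and Eomes was not tested. Zeb2, a factor of terminal effector cells, was 52.8 and 99.4 CPM in CD8 T cells, a ratio of 1.88 (1.76 to 2.01), and 1.05 in NK cells. Myeloid cells express Zeb2 too, and the part of their traces, with S100a8 at 574 and 5721 CPM in CD8 T cells, was not tested. Prdm1 had a ratio of 1.28 in CD8 T cells. In NK cells Hopx had a ratio of 1.23 and Zfp683 1.85, the latter on 28 and 26 UMIs.

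The values of the serine protease genes that neighbour Gzmb often rested on 1 cell. Gzmg had 0 and 118 UMIs in NK cells, the latter from 2 cells, of which 1 held 107. No direction is read from its ratio of at least 78.3 against a floor of 3 UMIs. Mcpt4, a mast cell chymase, had 353 UMIs in NK cells under lenvatinib, 298 of them in 1 cell, and 0 under combo, and 57 and 0 in CD8 T cells. Cma1 had ratios of 0.105 in CD8 T cells, on 87 and 6 UMIs, and 0.637 in NK cells, where 1 lenvatinib cell held 264 of 494 UMIs and the share of cells with a UMI was 5.37% and 7.91%. Mcpt8 had ratios of 4.64 and 2.24, with 63 of 73 combo CD8 T UMIs, 253 of 275 lenvatinib NK UMIs and 299 of 310 combo NK UMIs in 1 cell each. Ctsg, a neutrophil granule protease, had ratios of 9.84 and 0.797, with 91 of 213 combo CD8 T UMIs and 232 of 280 lenvatinib NK UMIs in 1 cell each. Over all cells Cma1 had 2928 and 220 UMIs and Mcpt4 2642 and 0, and lenvatinib basophil and mast cells held 1952 and 1911 of these. The part of traces from other cells in the CD8 T and NK values was not tested. No direction is read from the values of Mcpt4, Cma1, Mcpt8 and Ctsg in CD8 T or NK cells.

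Across the 22 sums of cells by class and library that held at least 100 cells, the genes closest to each member were named by Pearson's r of log2(CPM + 1), as a description, since the sums share libraries and cells. Gzma was closest to Klra4 (0.970) and Klre1 (0.968), genes of NK cells, and to Eomes (0.955), which CD8 T cells here also held. Gzmb was closest to Nkg7 (0.978), Gm19585 (0.975) and Ifng (0.973), and Nkg7 to Sytl3 (0.987), Gzmb (0.978) and Ifng (0.972). Prf1 was closest to Xcl1 (0.974), Klrc1 (0.961) and Klra9 (0.959), Gzmc to Klrb1a (0.919), Prf1 (0.905) and Xcl1 (0.905), and Gzmk to the T cell genes Themis (0.893), Cd6 (0.879) and Trac (0.868).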

How the data were processed

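Sorted CD45+ cells were profiled with a droplet 3′ kit (v3 chemistry). The matrices the authors deposited hold unnormalized UMI counts of genes in barcodes, made with Cell Ranger against mm10 (version 5.0.1 in the submitters' notes, 6.0.1 in the matrix headers). Here cells with at most 6000 genes and 25% mitochondrial counts were kept and gated by UMIs of the genes named. Counts were summed per class and divided by the class total (CPM), with exact Poisson intervals, exact binomial intervals for shares and ratios, and a floor of 3 counts for 0. Shares used cells thinned to 2000 UMIs, which left out 2028 and 747 shallower cells. Companion genes were named as the 2 highest and 2 lowest ratios of each list with at least 50 UMIs; Ctsc, and Lamp1 in NK cells, were named after their values were seen. Positions came from the reference annotation and upstream sequence from RefSeq. Gates, cell filters, totals, thinning depth, doublets and call limits were varied. Doublets were called with Scrublet (scanpy 1.11.5) for an alternative only and kept in the main values. The ratio rule and thinning were tested on simulated data. Members and lists were chosen with earlier results of these data known. Limits of 3, 10 and 50 UMIs, the Ncr1 split and the removal of top cells were added after seeing the data.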

Additional observations from a re-analysis of the deposited data

Results flagged for a closer look

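The members Gzma, Gzmk and Gzmc differed in opposite directions between the libraries in CD8 T and NK cells, with intervals that excluded 1 on each side. Gzma had a ratio of combo to lenvatinib of 1.34 in CD8 T cells and 0.697 in NK cells. Gzmk had 2.02 and 0.491, the latter on 154 and 38 UMIs. Its shares in NK cells, 1.08% and 0.640% after thinning, were close to the 0.542% and 0.937% of neutrophils. Gzmc had 0.797 and 1.94, and its CD8 T value became 1.47 when cells with an Ncr1 UMI were left out. These differences between the classes were not tested, since there was 1 library per condition.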

How the results depend on the processing

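Of 416 ratios recomputed under the alternatives fixed at the start, 279 stayed within the counting interval of the main value, 134 moved outside it and 3 reversed, meaning that a value past 1.5-fold changed sides of 1; in all, 15 of the 416 lay on the other side of 1. Of 28 ratios without Ncr1 positive T cells and 54 without top cells, both chosen after seeing the data, 1 each reversed and 4 and 1 changed sides. Gzmb in CD8 T cells (main value 3.16) was 2.95 with the CD8 gate on Cd8a or Cd8b1, 3.27 with Trdc cells taken out first, 3.33 without called doublets, 3.44 without cells of another lineage, 3.45 relative to the median gene, 3.31 as a mean over cells, 3.25 without mitochondrial, ribosomal protein and hemoglobin genes, 3.29 with the stricter cell filter and 3.43 without Ncr1 positive cells. In the same order, Gzma in CD8 T cells (1.34) was 1.66 with Trdc cells out first, 1.63, 1.44, 1.46, 1.95, 1.38, 1.47 and 2.06, so 4 of these passed 1.5-fold. Gzmk in CD8 T cells (2.02) was 2.14 without cells of another lineage and 2.21 relative to the median gene. Gzma in NK cells (0.697) was 0.807, 0.765, 0.919 and 0.729 without cells of another lineage, relative to the median gene, as a mean over cells and with the stricter filter, and Gzmb there (1.30) was 1.44, 1.43, 1.49 and 1.35. Gzmc in NK cells (1.94) was 1.46 without Cd3d or Cd3g cells, 1.79 without other lineages, 2.13 relative to the median gene, 2.07 with no cell filter, 2.25 with the stricter one and 2.23 without the top cells. The Pdcd1 ratio of Gzmb (1.86 under lenvatinib, 1.51 under combo) was 2.06 and 1.59 with the other CD8 gate, 1.56 and 1.38 as a mean over cells, and 1.69 and 1.42 without the mitochondrial, ribosomal and hemoglobin genes; under lenvatinib it was 2.02 without doublets and 2.17 without Ncr1 positive cells, and under combo 1.59 without other lineages and 1.60 with the stricter filter. The Klra8 ratio of Gzma under lenvatinib (1.34) was 1.28 to 1.39 (1.28 without Cd3d or Cd3g cells, 1.32 without other lineages, 1.39 as a mean over cells, 1.37 without the gene classes, 1.38 unfiltered, 1.31 stricter), and under combo (2.56) 2.21, 2.26, 2.66 and 2.47 for other lineages, mean over cells, gene classes and stricter filter. Reversed under combo were the Klra8 ratio of Gzmd (0.278 without Cd3d or Cd3g cells, 0.254 without other lineages, 0.310 without top cells), that of Gzmf (0.390 without Cd3d or Cd3g cells) and the Pdcd1 ratio of Gzmc (0.758 without Ncr1 positive cells). Gzmb was found in 19.5% and 38.7% of CD8 T cells at 1000 UMIs, 32.1% and 54.1% at 3000 and 46.8% and 65.0% unthinned, and Gzmb with Prf1 in 36.0% and 43.1% of NK cells at 3000 and 56.4% and 64.6% unthinned. At 200 UMIs or more, 0 members were lower in NK cells (main count 1) and 1 higher in Trdc T cells (2); at 2-fold, 1 was higher and 0 lower in Trdc T cells. The cause of these moves was not tested. With 1 library per condition no replicate could be left out. No paired analysis was possible because each condition had 1 library. Depth limits Gzmd, Gzme and Gzmf outside NK cells and Gzmk and Gzmm in NK and Trdc T cells.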
